A study of Mus musculus with 12 samples.

Results

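The Id genes and the genes of the BMP (bone morphogenetic protein) signalling chain that feeds them were followed across 12 RNA sequencing libraries of C18-4 cells. C18-4 is an established mouse line that descends from spermatogonial stem cells. The set holds 10 of the 17576 genes in the deposited table, picked by symbol: Id1, Id2, Id3, Id4, Smad6, Smad7, Bmp4, Bmpr1a, Bmpr2 and Smad1. The libraries form 4 groups of 3, named 8276OV (virus for overexpression of the long noncoding RNA lncRNA8276), 5NC, 8276KD (virus for its inhibition) and 3NC. Whether 5NC and 3NC cells also received a virus is not stated; the labels give the strain as IRC mouse for every library. In the design text 5NC stands next to overexpression and 3NC next to knockdown, so 8276OV was set against 5NC, and 8276KD against 3NC. The promoter in the viruses and the time after infection are not described, and no label says whether the 3 libraries of a group are separate cultures. The p-values thus measure spread among libraries alone, and that spread may be technical.

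BMP ligands such as BMP4 bring together receptors of type I (BMPR1A) and type II (BMPR2), which phosphorylate the SMAD1 family. These SMADs join SMAD4 in the nucleus and switch on Id1, Id2, Id3 and the feedback inhibitors Smad6 and Smad7. ID proteins have a helix-loop-helix domain but no DNA-binding region. They hold E proteins (TCF3, TCF4, TCF12) away from DNA and so keep cells undifferentiated. In the mouse testis, Id4 marks the spermatogonia with the most stem cell activity, and BMP4 is known to push spermatogonia toward differentiation.

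The start regions of 3 Id genes and of Smad6 are printed first, because BMP-activated SMADs are known to bind GC-rich boxes and SMAD4 the CAGAC box, and because these genes did not move alike. They come from RefSeq on GRCm38.p6 (the assembly of mm10), read 5′ to 3′ on the gene's strand and ending at the base before the annotated gene. Windows of 8 of the 10 genes were searched; that of Bmpr1a lies inside the annotated gene and is not described. The stretches are chr12:25096093-25096342 on the minus strand for Id2, chr4:136143572-136143821 on the plus strand for Id3, chr13:48260866-48261115 on the plus strand for Id4 and chr9:64022086-64022309 on the minus strand for Smad6. Capitals mark GGCGCC, or CAGAC in either orientation (GTCTG on the opposite strand).

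Id2: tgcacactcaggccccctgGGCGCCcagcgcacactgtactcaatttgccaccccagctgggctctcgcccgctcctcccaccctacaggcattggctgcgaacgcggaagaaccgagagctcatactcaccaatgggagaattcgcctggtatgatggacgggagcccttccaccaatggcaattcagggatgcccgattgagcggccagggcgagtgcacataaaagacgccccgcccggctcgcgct
Id3: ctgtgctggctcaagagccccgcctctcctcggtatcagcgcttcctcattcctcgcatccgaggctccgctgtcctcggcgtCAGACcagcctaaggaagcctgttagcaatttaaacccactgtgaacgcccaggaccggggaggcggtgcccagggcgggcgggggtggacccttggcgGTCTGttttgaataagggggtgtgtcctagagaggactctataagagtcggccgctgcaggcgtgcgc
Id4: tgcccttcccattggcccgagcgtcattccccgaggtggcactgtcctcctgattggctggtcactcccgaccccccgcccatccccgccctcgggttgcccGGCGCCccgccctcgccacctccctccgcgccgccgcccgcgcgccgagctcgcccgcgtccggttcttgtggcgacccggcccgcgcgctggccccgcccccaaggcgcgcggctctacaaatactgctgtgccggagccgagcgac
Smad6: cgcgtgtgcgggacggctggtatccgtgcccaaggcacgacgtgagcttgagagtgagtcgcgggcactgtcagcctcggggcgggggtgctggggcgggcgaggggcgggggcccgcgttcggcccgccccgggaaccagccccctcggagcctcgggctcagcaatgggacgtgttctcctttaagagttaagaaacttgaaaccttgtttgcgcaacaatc

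Counted from the first base of the gene, with the base before it as -1, Id2 held GGCGCC from position -231 and Id4 from position -148. Id3 held 2 CAGAC boxes, from -167 and -68, the second on the opposite strand, and the Smad6 stretch of 224 bases held neither. GGCGCC also lay in the window of Bmpr2 (from -105). Over 32851 mouse windows of 250 bases before a start, 9.59% held GGCGCC and 42.2% held CAGAC on either strand. Matches are letters only and say nothing of binding. Transcripts of Id1, Id3 and Smad6 were GC-rich (54.7%, 55.6% and 60.8% GC in the longest transcript), while those of Id2 and Id4 were at 45.1% and 42.6%.

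The values are read as FPKM, fragments scaled by transcript length and library total, which compares genes per length; the table names no unit and gives no counts, so depth is unknown and no counting interval is given. Between 10929 and 11165 genes reached 1 FPKM in a library. Some features of the libraries touch the results below. The difference between 8276OV and 5NC fell with the GC content of transcripts (Spearman's rho = -0.789 across 11197 genes, which are not independent replicates), so each fold change was also computed after removing a smooth GC trend from every library. Library 8276KD replicate 2 stood apart from its group in that trend, with a slope of 0.184 log2 units per 10 GC points against -0.0402 and -0.00192 in the other 8276KD libraries. Slopes were 0.103 to 0.151 in 3NC, 0.148 to 0.198 in 5NC and -0.462 to -0.237 in 8276OV. Replicate 2 thus lay in the range of the control groups, and the other 8276KD libraries lay between the controls and 8276OV. The level of lncRNA8276 was not analysed here, so the labels were not checked by it.

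The label of the cells was set against 34 markers of spermatogonia, 30 of them in the table. Of these, 22 stayed below 1 FPKM in every library, among them Gfra1 (up to 0.17), Zbtb16 (up to 0.04), Ret (up to 0.01), Kit (up to 0.01), Nanos2 (up to 0.10), Ddx4 (up to 0.03) and Dazl (up to 0.05). By their mean over the 12 libraries the highest were Tex19.1, Mcam, Adgra3 and Itga6, with maxima of 124.75, 67.12, 12.24 and 6.08. All 6 markers of mesothelium reached 1 FPKM, and Krt19, a keratin gene, ranged from 176.97 to 374.38. Of 10 Sertoli cell markers in the table, 5 stayed below 1 FPKM, among them Sox9 and Cldn11 (at or below 0.04), and the other 5 passed the filter. Wt1, which is also one of the mesothelial markers, ranged from 49.00 to 62.80, Tjp1 from 30.73 to 41.07 and Gata4 from 3.25 to 6.77. The summed Sertoli markers were at 93.2 to 96.2 FPKM in 8276OV, against 100 to 103 in 5NC, and at 98.7 to 104 in 8276KD, against 95.9 to 97.8 in 3NC. Id4 was thus measured in cells where most other markers of these cells stayed below 1 FPKM.

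**Figure D1:**
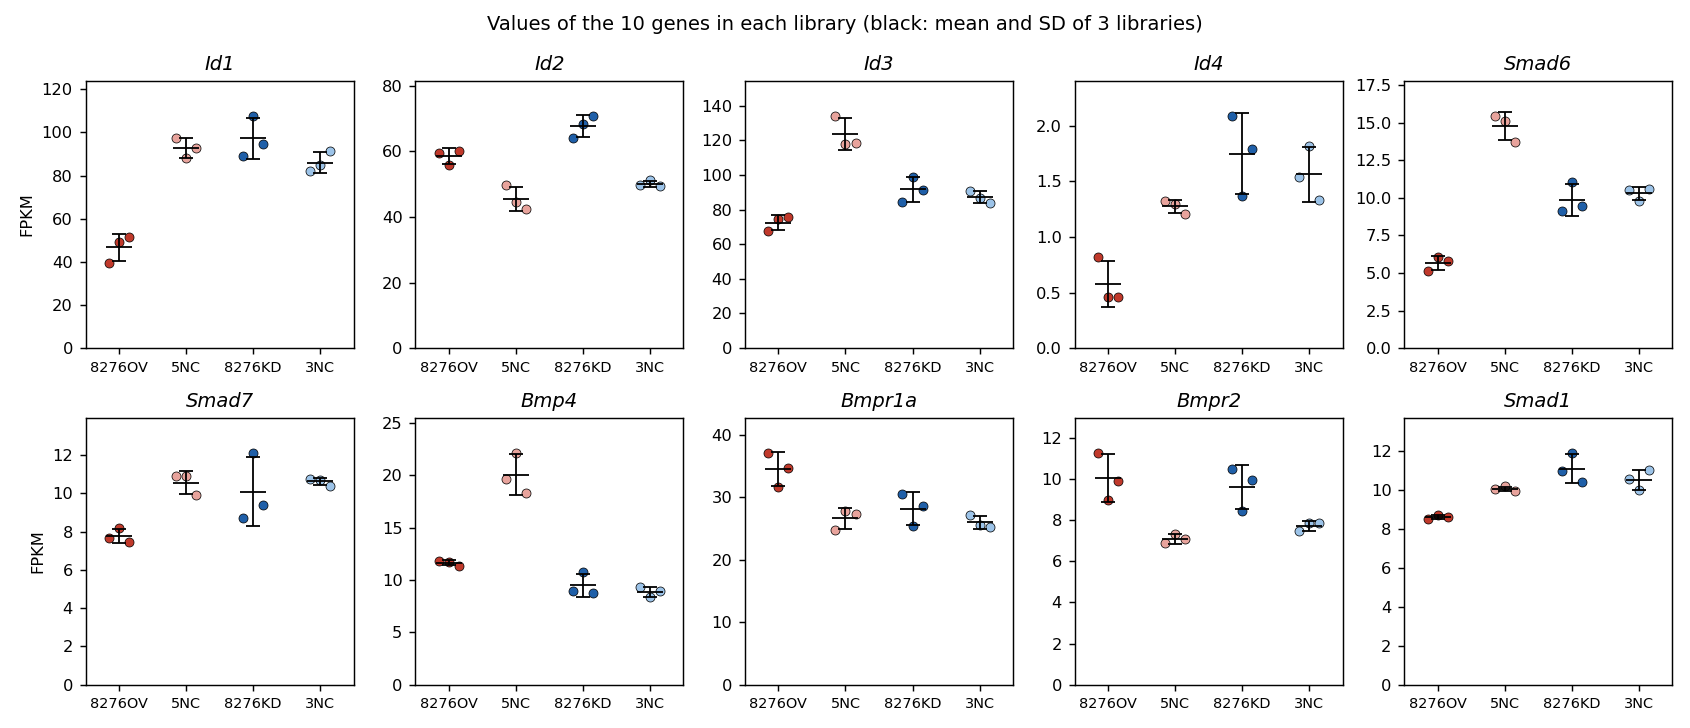
FPKM (vertical axes, from 0) of the 10 genes in each library of 8276OV, 5NC, 8276KD and 3NC; points are libraries, black bars the mean and SD of 3. Id1, Id4 and Smad6 are lowest in the 3 libraries of 8276OV, Id2 is highest in 8276KD, and Bmp4 is highest in 5NC.

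Overexpression libraries had less RNA of Id1, Id3, Id4 and Smad6 than 5NC and more of Id2. Id1 and Smad6, both direct BMP targets, stood at about 0.504 and 0.385 of their 5NC means. Of the 10 genes, 3 rose and 7 fell, where 30.3% of all 11360 tested genes rose and 44.1% fell (74.4% called in all), so a share of 10 in 10 has to be read against that background. After quantile normalization 4428 of all genes were called higher and 3997 lower, against 3447 and 5005 as deposited, and the median of all genes shifted by 0.12 on the log2 scale. After GC correction 1 rose (Id2) and 5 fell (Id1, Id3, Id4, Smad6 and Bmp4), against 27.8% and 27.0% of all genes (54.8% called). In a bulk sample, fewer cells that express a gene and less RNA per cell cannot be told apart. Tests are limma's moderated test over all 12 libraries with Benjamini-Hochberg adjustment over all genes tested; a gene with an adjusted p under the threshold of 0.05 is called, and fold changes are on the log2(FPKM + 1) scale.

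Id1, an inhibitor of differentiation induced by BMP in many cells (NCBI gene 15901, chromosome 2, 152736251 to 152737410 on GRCm38.p6, as are the positions below), had 39.55, 49.12 and 51.51 FPKM in 8276OV, against 97.60, 88.06 and 92.73 in 5NC. The 8276OV libraries all lay below the 5NC libraries. The log2 fold change was -0.98 (SE 0.0898, adjusted p = 8.21e-07), and -0.58 (SE 0.0609, adjusted p = 2.62e-06) after GC correction. Against 3NC it was -0.87 (adjusted p = 1.24e-06), so the fall held with either control group. In 8276KD, Id1 had 89.20, 107.68 and 94.77 FPKM, against 81.95, 84.81 and 91.38 in 3NC. These groups overlapped and the difference of 0.17 was not called (SE 0.0898, interval -0.022 to 0.36, adjusted p = 0.148), while after GC correction Id1 was called higher (0.22, SE 0.0609, adjusted p = 0.00761). In the order of levels as deposited, 8276OV came last, apart from the other 3 groups. Their neighbours were not called different (5NC minus 3NC 0.11, adjusted p = 0.325, and 8276KD minus 5NC 0.063, adjusted p = 0.573). After GC correction 8276KD was above 5NC (0.18, adjusted p = 0.0217).

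Id3, the most abundant Id transcript in 5NC (gene 15903, chromosome 4, 136143822 to 136145392), had 67.39, 74.66 and 75.50 FPKM in 8276OV, against 134.09, 117.86 and 118.71 in 5NC. There was no overlap, and the log2 fold change was -0.76 (SE 0.0670, adjusted p = 6.30e-07). Id3 had 84.55, 98.91 and 91.32 FPKM in 8276KD, against 90.72, 86.86 and 84.04 in 3NC. Those groups overlapped (log2 fold change 0.068, SE 0.0670, adjusted p = 0.448). The controls differed as well: 5NC was above 3NC by 0.50 (SE 0.0670, adjusted p = 3.02e-05) with no overlap. Against 3NC, the 8276OV difference was -0.26 (adjusted p = 0.00274), and after GC correction it was 0.13 (adjusted p = 0.0194), the opposite sign. After GC correction the fall against 5NC was -0.30 (adjusted p = 7.76e-05), and Id3 was called higher in 8276KD than in 3NC (0.13, adjusted p = 0.0305). Against 5NC, 8276KD was also lower (-0.43, adjusted p = 1.26e-04).

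Id2 went the other way (gene 15902, chromosome 12, 25093799 to 25096092). It had 59.58, 55.75 and 60.28 FPKM in 8276OV, against 49.66, 44.63 and 42.45 in 5NC, a rise of 0.36 (SE 0.0588, adjusted p = 9.76e-05). In 8276KD it had 64.04, 68.51 and 70.85 FPKM, against 49.73, 51.25 and 49.35 in 3NC, a rise of 0.43 (SE 0.0588, adjusted p = 8.61e-05). Each manipulated group lay wholly above its control. Id2 was the single gene of the 10 that was called in the same direction in both arms with and without GC correction, and the difference between its effects in the arms was not called as deposited (-0.072, interval -0.25 to 0.11, adjusted p = 0.471). After GC correction it was called, with the smaller rise under overexpression (-0.22, adjusted p = 0.0282). The knockdown rise was 0.40 after GC correction and 0.56 against 5NC. The overexpression rise was smaller after GC correction (0.18, adjusted p = 0.0146), and against 3NC it was 0.22 (adjusted p = 0.00393) before and 0.029 (adjusted p = 0.658) after it.

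Id4, the stem spermatogonia marker (gene 15904, chromosome 13, 48261116 to 48266028), was scarce in all groups. It had 0.82, 0.46 and 0.46 FPKM in 8276OV, against 1.32, 1.30 and 1.21 in 5NC, and 2.09, 1.37 and 1.79 in 8276KD, against 1.54, 1.82 and 1.33 in 3NC. All 3 libraries of 8276OV lay below the other 9. The log2 fold change against 5NC was -0.53 (SE 0.113, adjusted p = 7.32e-04), and it was larger after GC correction (-0.81, SE 0.0929, adjusted p = 4.27e-06). Against 3NC the fold change was -0.70 (adjusted p = 7.57e-05), and -0.98 after GC correction. The pseudocount of 1 shrinks these values: the ratio of means was 0.454 against 5NC and 0.371 against 3NC. At a given GC content the same trend was removed from genes of all levels. Its size may not suit a gene this low, which was not tested. Knockdown left Id4 at 0.097 above 3NC (SE 0.113, interval -0.15 to 0.34, adjusted p = 0.523).

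The mix of Id transcripts also shifted. The summed level of the 4 genes was 167, 180 and 188 FPKM in 8276OV, against 283, 252 and 255 in 5NC, and 240, 276 and 259 in 8276KD, against 224, 225 and 226 in 3NC. Id2 made up 35.6%, 31.0% and 32.1% of that sum in 8276OV, against 17.6%, 17.7% and 16.6% in 5NC. In 8276KD its share was 26.7%, 24.8% and 27.4%, against 22.2%, 22.8% and 21.8% in 3NC. The ratio of Id1 to Id3 was 0.587, 0.658 and 0.682 in 8276OV, against 0.728, 0.747 and 0.781 in 5NC, and lay between 0.903 and 1.09 in the 6 libraries of 8276KD and 3NC. These sums and shares are given as descriptions, with no test. They use the values as deposited, and the Id2 transcript has a lower GC content than those of Id1 and Id3. After GC correction the differences of 8276OV minus 5NC were 0.18 for Id2, -0.58 for Id1 and -0.30 for Id3.

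**Figure D2:**
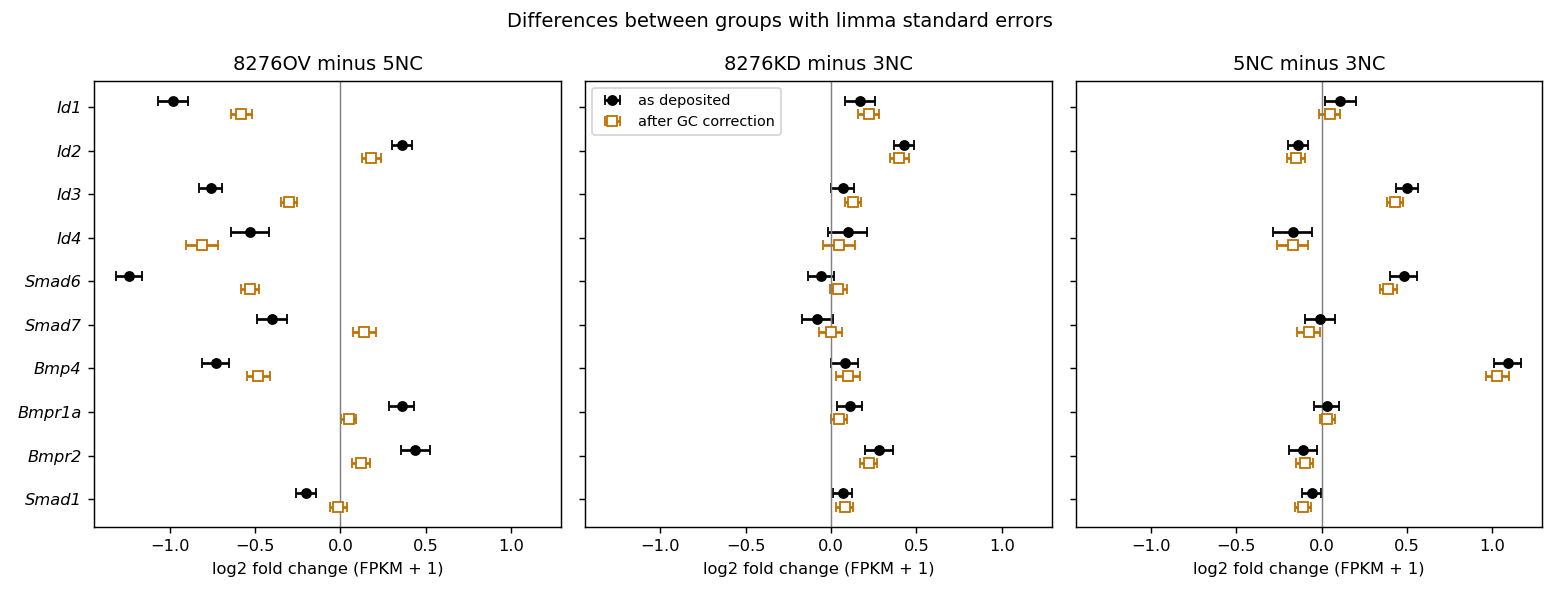
Log2 fold changes (horizontal axes, log2 of FPKM + 1) of the 10 genes for 8276OV minus 5NC, 8276KD minus 3NC and 5NC minus 3NC; filled circles are values as deposited, open squares values after GC correction, bars limma standard errors. In the first panel Id4 moves further from 0 after GC correction, to -0.81, while Smad7 crosses 0, from -0.40 to 0.14.

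The inhibitory SMADs behaved differently from each other. Smad6, which blocks SMAD1 signalling and is itself a BMP target (gene 17130, chromosome 9, 63953076 to 64022085), had 5.16, 6.07 and 5.80 FPKM in 8276OV, against 15.45, 15.13 and 13.71 in 5NC. This was the largest change of the 10 genes between these groups as deposited (log2 fold change -1.24, SE 0.0769, adjusted p = 7.23e-08). It was -0.53 (SE 0.0505, adjusted p = 8.05e-07) after GC correction. The controls differed here too: 5NC exceeded 3NC by 0.48 (SE 0.0769, adjusted p = 1.35e-04). Against 3NC, the 8276OV difference was -0.76 (adjusted p = 1.08e-06) as deposited and -0.14 (adjusted p = 0.0256) after GC correction. Smad6 had 9.10, 11.06 and 9.44 FPKM in 8276KD, against 10.49, 9.81 and 10.57 in 3NC, which overlapped (-0.059, SE 0.0769, adjusted p = 0.572).

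Smad7, which blocks both the BMP and the TGF-beta branch (gene 17131, chromosome 18, 75367365 to 75395935), had 7.68, 8.16 and 7.46 FPKM in 8276OV, against 10.89, 10.89 and 9.88 in 5NC. The groups did not overlap, and the log2 fold change was -0.40 (SE 0.0897, adjusted p = 0.00119). After GC correction it was 0.14 and not called (SE 0.0671, adjusted p = 0.102), and after GC and length correction it was called higher (0.17, SE 0.0677, adjusted p = 0.0455). Smad7 had 8.73, 12.12 and 9.39 FPKM in 8276KD, against 10.76, 10.69 and 10.39 in 3NC. The highest of these was 8276KD replicate 2, whose GC slope lay in the range of the control groups. The fold change was -0.080 with it (adjusted p = 0.508) and -0.21 without it (SE 0.0631, adjusted p = 0.0170), both as deposited. With all libraries and GC correction the fold change was -0.0029 (adjusted p = 0.975). Leaving out that library was not combined with GC correction. The SD of Smad7 was 1.80 FPKM in 8276KD and 0.197 FPKM in 3NC.

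Bmp4, the ligand of the set (gene 12159, chromosome 14, 46383525 to 46390669), differed most between the control groups. It had 11.79, 11.76 and 11.36 FPKM in 8276OV, against 19.67, 22.16 and 18.30 in 5NC, and 8.99, 10.73 and 8.74 in 8276KD, against 9.30, 8.38 and 8.98 in 3NC. The difference of 5NC minus 3NC was 1.09 (SE 0.0793, adjusted p = 8.61e-08), or 1.03 after GC correction. Bmp4 fell in 8276OV against 5NC (-0.73, SE 0.0793, adjusted p = 2.99e-06; -0.48 after GC correction) but was higher against 3NC (0.35, adjusted p = 0.00110; 0.56 after GC correction). The direction for overexpression therefore depends on the control, and both comparisons share the 8276OV libraries. Knockdown differed from 3NC by 0.081 (SE 0.0793, adjusted p = 0.443) and from 5NC by -1.01 (adjusted p = 2.61e-07).

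Summed mesothelial and fibroblast markers were, like Bmp4, highest in 5NC and lowest in 3NC, but their sums were also higher in 8276KD than in 3NC, where Bmp4 was not called. The summed FPKM of 6 mesothelial markers ranged from 863 to 970 in 8276OV, against 1227 to 1242 in 5NC, and from 878 to 993 in 8276KD, against 638 to 655 in 3NC. For 7 fibroblast markers in the table the sums were 463 to 530 in 8276OV, against 610 to 616 in 5NC, and 386 to 456 in 8276KD, against 310 to 320 in 3NC. None of the mesothelial markers was at 0 in a library; of the fibroblast markers, Col1a2 was at 0 in 2 libraries and Postn in 1, and both stayed below 1 FPKM, while Col1a1 reached 382.87. Single markers did not all follow the sums. By group means, Upk3b (791 FPKM in 5NC, 240 in 3NC), Lrrn4, Col1a1 (381 and 256) and Col3a1 were highest in 5NC and lowest in 3NC. Msln and Pdgfrb were highest in 5NC but not lowest in 3NC. Krt19 and Wt1 were highest in 8276KD, Gpm6a, Dcn and Postn in 8276OV, and Pdgfra in 3NC. The part of these markers in the result was not tested.

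Both receptors were higher under overexpression as deposited, and neither rise was called after GC correction. Bmpr1a, a type I receptor (gene 12166, chromosome 14, 34411061 to 34503336), had 37.19, 31.73 and 34.72 FPKM in 8276OV, against 24.74, 27.80 and 27.36 in 5NC. The log2 fold change was 0.36 (SE 0.0739, adjusted p = 5.57e-04), and 0.048 (SE 0.0443, adjusted p = 0.379) after GC correction. Bmpr1a had 30.57, 25.38 and 28.64 FPKM in 8276KD, against 27.24, 25.64 and 25.30 in 3NC, with overlap (0.11, SE 0.0739, adjusted p = 0.274).

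Bmpr2, the type II receptor (gene 12168, chromosome 1, 59764279 to 59878081), had 11.27, 8.97 and 9.87 FPKM in 8276OV, against 6.87, 7.34 and 7.06 in 5NC, and 10.48, 8.43 and 9.92 in 8276KD, against 7.45, 7.86 and 7.83 in 3NC. Both manipulated groups lay above their controls. The rise under overexpression was 0.44 (SE 0.0826, adjusted p = 2.68e-04) and was not called after GC correction (0.12, SE 0.0521, adjusted p = 0.0620). The knockdown rise was 0.28 (SE 0.0826, adjusted p = 0.0164), and 0.22 (adjusted p = 0.00294) after GC correction. It was not called without 3NC replicate 1 (0.26, adjusted p = 0.0583), 8276KD replicate 1 (0.22, adjusted p = 0.0716) or 8276KD replicate 3 (0.26, adjusted p = 0.0592).

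Smad1, the transducer of the chain (gene 17125, chromosome 8, 79338395 to 79399428), changed least under overexpression as deposited. It had 8.49, 8.73 and 8.60 FPKM in 8276OV, against 10.04, 10.17 and 9.96 in 5NC (log2 fold change -0.20, SE 0.0571, adjusted p = 0.00555). The groups did not overlap, but after GC correction the difference was -0.011 (SE 0.0485, adjusted p = 0.860). In 8276KD it had 10.95, 11.91 and 10.41 FPKM, against 10.53, 10.01 and 11.04 in 3NC (0.068, SE 0.0571, adjusted p = 0.369).

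Knockdown moved few of the 10 genes. Id2 and Bmpr2 rose, none fell, and the other 8 were not called, where 20.0% of all tested genes rose and 19.5% fell (39.4% called). After GC correction 4 rose (Id1, Id2, Id3 and Bmpr2) and none fell, against 25.3% and 23.1% of all genes (48.4% called). Leaving out 8276KD replicate 2, with the values as deposited, added Smad7 to the calls, giving 3. The effects of the 2 manipulations, each against its own control group, differed for Id1 (-1.15, SE 0.127, adjusted p = 1.15e-05), Id3 (-0.83, SE 0.0947, adjusted p = 1.49e-05), Id4 (-0.63, SE 0.160, adjusted p = 0.00409), Smad6 (-1.18, SE 0.109, adjusted p = 3.31e-06) and Bmp4 (-0.81, SE 0.112, adjusted p = 5.88e-05), where 60.6% of all genes were called (24.5% higher and 36.2% lower). These 5 remained called after GC correction, and Id2 was then called as well (-0.22, adjusted p = 0.0282). The share of all genes called after GC correction is not given for this test. As deposited, the same test also called Smad1 (-0.27, adjusted p = 0.0108), Smad7 (-0.32, adjusted p = 0.0434) and Bmpr1a (0.26, adjusted p = 0.0478), and none of these after GC correction. The Smad7 call was also lost in 8 of the 12 fits that left out a library (-0.41 to -0.19), and the Bmpr1a call in 9 of them (0.18 to 0.31). The difference between the control groups enters this test. For Id3 after GC correction, 8276OV minus 8276KD was 0.0029 (adjusted p = 0.963), while 5NC minus 3NC was 0.43. For Smad6 after GC correction these were -0.18 and 0.39, and for Bmp4 as deposited 0.27 and 1.09. For Id1 and Id4 after GC correction, 8276OV minus 8276KD was -0.75 and -1.03. Their 5NC minus 3NC values were 0.047 and -0.17, and neither was called.

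The control groups themselves differed in Bmp4, Id3 and Smad6, all higher in 5NC, where 30.6% of all genes were higher and 25.9% lower (56.5% called). The other 7 were not called; for Id1 the difference was 0.11 (interval -0.085 to 0.30), and Smad7 averaged 10.6 FPKM in both. After GC correction Id2 was added, lower in 5NC (-0.15, adjusted p = 0.0306), where 31.2% of all genes were higher and 33.3% lower (64.5% called). This comparison shares the 5NC and 3NC libraries with those above.

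With the controls exchanged, all 10 genes were called for 8276OV minus 3NC, 4 higher and 6 lower, where 33.5% of all genes were higher and 41.7% lower (75.2% called). Bmp4 was the gene that changed sides. For 8276KD minus 5NC, Id2 and Bmpr2 were again higher, and Id3, Smad6 and Bmp4 were lower, where 24.7% of all genes were higher and 30.5% lower (55.3% called). Id1, Id4 and Smad6 were lower in 8276OV than in either control, with and without GC correction, and Id2 was higher in 8276KD than in either control, with and without it.

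The order of the group means put 8276KD first for Id2, then 8276OV (8276OV minus 8276KD -0.21, adjusted p = 0.00646), then 3NC, with 5NC last and not called different from 3NC (-0.14, adjusted p = 0.0621). For Id3 and Smad6, 5NC came first and 8276OV last, with 8276KD and 3NC between them and not called different. For Id4, 8276OV was below the other groups, and among those 8276KD and 5NC, at the ends, were not called different (0.26, adjusted p = 0.0617). Bmp4 was highest in 5NC, then in 8276OV, which exceeded 8276KD (0.27, adjusted p = 0.00752), and was not called different between 8276KD and 3NC. Smad7 and Smad1 were lowest and Bmpr1a highest in 8276OV, with no call among the other 3 groups. For Bmpr2, 8276OV and 8276KD stood above 3NC and 5NC and were not called different from each other (0.057, adjusted p = 0.557). These orders use the values as deposited. After GC correction Bmpr2 was lower in 8276OV than in 8276KD (-0.20, adjusted p = 0.00407). Id3 was then not called different between 8276OV and 8276KD (0.0029, adjusted p = 0.963). Smad7 and Bmpr1a in 8276OV were then not called against any other group.

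**Figure D3:**
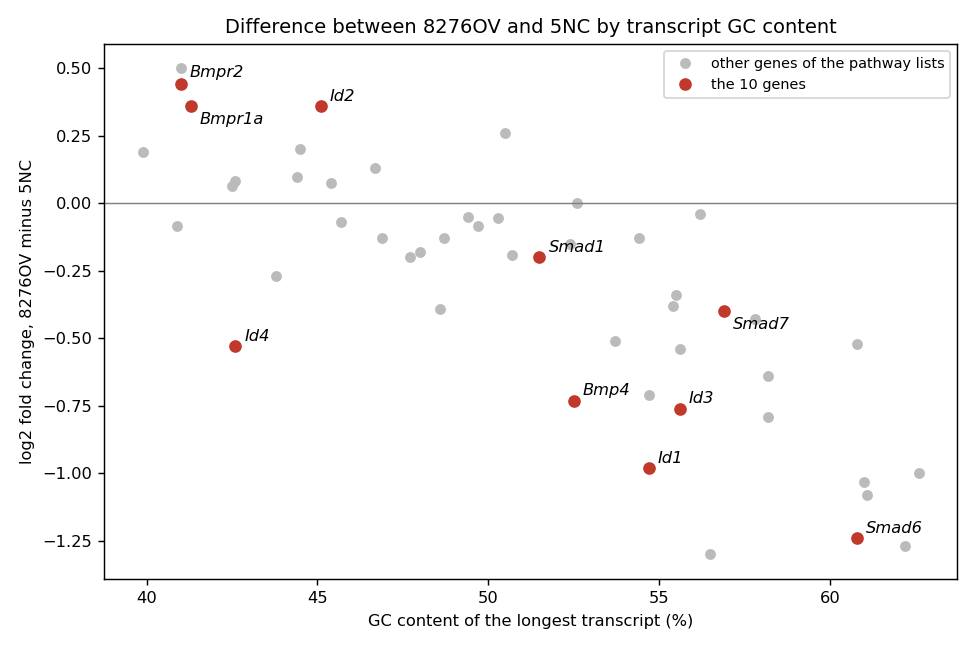
Log2 fold change of 8276OV minus 5NC (vertical axis) against GC content of the longest transcript (horizontal axis, %); red points are the 10 genes, grey points the other tested genes of the pathway lists. Smad6, with 60.8% GC, lies at -1.24 and Bmpr2, with 41.0% GC, at 0.44, while Id4, with 42.6% GC, lies at -0.53, below the genes of like GC content.

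Other genes of the pathway were taken from lists of ligands, receptors, SMADs, inhibitors, targets and E proteins. Of 74 listed genes, 63 were in the table and 39 were tested. Under overexpression 4 rose and 20 fell (61.5% called; median log2 fold change -0.15, against -0.088 over all tested genes), where 30.3% of all tested genes rose and 44.1% fell. Under knockdown 9 rose and 9 fell (46.2% called; median 0.016, against -0.0048), where 20.0% of all genes rose and 19.5% fell. Between the control groups 20 were higher and 8 lower in 5NC (71.8% called; median 0.20, against 0.022), where 30.6% of all genes were higher and 25.9% lower.

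Among further BMP targets, 8 of 12 tested fell and 0 rose in 8276OV against 5NC (median -0.41), where 44.1% of all genes fell and 30.3% rose. After GC correction 6 were lower and 0 higher, against 27.0% and 27.8% of all genes. Atoh8, a basic helix-loop-helix factor induced by BMP, had 7.32, 10.16 and 9.61 FPKM in 8276OV, against 23.00, 23.27 and 22.53 in 5NC (-1.27, SE 0.109, adjusted p = 5.39e-07). Like Id3 and Smad6 it was higher in 5NC than in 3NC (1.06, adjusted p = 2.38e-06), and against 3NC the 8276OV difference was -0.21 (adjusted p = 0.0943), or 0.45 (adjusted p = 1.19e-05) after GC correction. Msx1, a homeobox gene, averaged 2.72 FPKM in 8276OV, against 5.44 in 5NC, with a log2 fold change of -0.79 (adjusted p = 3.20e-06), or -0.19 (adjusted p = 0.0216) after GC correction. Msx1 was also lower in 8276KD than in 3NC (-0.33, adjusted p = 0.00850), and after GC correction (-0.24, adjusted p = 0.00648). Alpl, the alkaline phosphatase gene of bone and of early germ cells, was likewise lower in both arms, unlike the Id genes. It had 1.24, 1.61 and 1.70 FPKM in 8276OV, against 5.42, 4.69 and 5.47 in 5NC, and 1.26, 1.75 and 1.20 in 8276KD, against 4.50, 4.61 and 5.98 in 3NC, lower in both arms without overlap (-1.30, SE 0.113, adjusted p = 5.89e-07, and -1.33, SE 0.113, adjusted p = 1.47e-06). The values after GC correction were -0.79 and -1.25. Junb, an AP-1 subunit gene, also fell in both arms: it averaged 20.3 FPKM in 8276OV, against 41.6 in 5NC (adjusted p = 2.12e-06), and 30.0 in 8276KD, against 51.0 in 3NC (adjusted p = 8.79e-05). Its GC-corrected log2 fold changes were -0.22 and -0.65. Gata2 and Klf10, named after their values were seen, were also called lower in both arms as deposited. Their fold changes were -0.64 and -0.35 for Gata2, and -0.13 and -0.20 for Klf10.

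Under knockdown 2 of the 12 targets rose and 7 fell (median -0.28), where 20.0% of all genes rose and 19.5% fell. Of the 4 Id genes 1 rose and none fell. Those that rose, named after their values were seen, were Hes1, a repressor known as a Notch target (0.43, adjusted p = 4.70e-04), and Dlx5, a homeobox gene of bone (0.36, adjusted p = 0.0242). Against 5NC both were lower in 8276KD (-0.19, adjusted p = 0.0401, and -0.65, adjusted p = 3.54e-04), so the direction depends on the control. In 8276OV too, Hes1 and Dlx5 were lower than in 5NC (-0.19 and -0.71) but higher than in 3NC (0.43, adjusted p = 1.28e-04, and 0.30, adjusted p = 0.0309). Msx1, Alpl and Junb were lower in 8276OV than in 3NC as well (-0.83, -1.26 and -1.29). Dlx5 averaged 0.447 FPKM in 8276KD, against 0.113 in 3NC, and 0.370 in 8276OV, against 1.25 in 5NC. Only its 5NC mean reached the 1 FPKM that the filter asks of at least 3 libraries. The counts of targets that rose under knockdown and fell under overexpression thus include a gene near the floor.

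For the BMP antagonists Nbl1 and Bmper, the fold change between the control groups was larger than that of either manipulation against its control. Nbl1, which encodes a BMP antagonist of the DAN family, had 5.55, 7.77 and 7.95 FPKM in 8276OV, against 16.44, 15.50 and 15.73 in 5NC, and 8.06, 10.74 and 8.11 in 8276KD, against 4.82, 4.71 and 4.47 in 3NC. It fell under overexpression (-1.08, SE 0.115, adjusted p = 2.74e-06), rose under knockdown (0.80, SE 0.115, adjusted p = 1.20e-04) and was 1.58 higher in 5NC than in 3NC. After GC correction the values were -0.35 (adjusted p = 5.45e-04), 0.91 and 1.48. With the control groups exchanged both directions turned round, to 0.50 for 8276OV against 3NC and -0.77 for 8276KD against 5NC (1.13 and -0.57 after GC correction). Nog, the gene of noggin, had 1.71, 1.99 and 1.73 FPKM in 8276KD, against 0.80, 0.44 and 0.44 in 3NC. That rise of 0.86 (SE 0.0942, adjusted p = 1.36e-05) was 0.45 against 5NC (adjusted p = 0.00123), and in 8276OV Nog differed from 5NC by -0.040 (adjusted p = 0.714), or 0.46 (adjusted p = 0.00125) after GC correction. The Nog libraries of 8276OV (0.93 to 1.09 FPKM) and 5NC (0.93 to 1.14 FPKM) overlapped. As for Id4, the GC trend removed may not suit a gene this low. Bmper, which binds BMPs outside the cell, was higher in 8276OV than in 5NC (33.6 against 27.8 FPKM; 0.26, SE 0.0552, adjusted p = 6.81e-04) and in 8276KD than in 3NC (19.3 against 16.0 FPKM; 0.25, SE 0.0552, adjusted p = 0.00305). Against 5NC the 8276KD difference was -0.51. Over all 13 tested inhibitors, 2 rose and 6 fell under overexpression, where 30.3% of all genes rose and 44.1% fell. Under knockdown 5 rose and 0 fell, where 20.0% of all genes rose and 19.5% fell. After GC correction 4 rose and 4 fell under overexpression (27.8% and 27.0% of all genes), and 6 rose and 0 fell under knockdown (25.3% and 23.1%). Smurf1, a ubiquitin ligase that marks SMAD1 for degradation, averaged 32.9 FPKM in 8276OV, against 42.0 in 5NC (-0.34, adjusted p = 6.51e-05), and this turned to 0.11 (adjusted p = 0.0107) after GC correction and to 0.14 (adjusted p = 0.0281) against 3NC.

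Of the other ligands, 9 of the 11 in the table stayed below 1 FPKM. Bmp6 had 7.58, 8.40 and 7.83 FPKM in 8276OV, against 11.56, 11.01 and 10.46 in 5NC, and 7.94, 8.15 and 7.80 in 8276KD, against 5.62, 5.66 and 6.71 in 3NC. It fell under overexpression (-0.43, SE 0.0681, adjusted p = 7.46e-05; 0.16 and adjusted p = 0.0535 after GC correction) and rose under knockdown (0.36, SE 0.0681, adjusted p = 0.00101), and both directions turned round with the other control group (0.36 and -0.42). Gdf6 rose under knockdown by 0.52 (adjusted p = 3.82e-04) but not against 5NC (0.028, adjusted p = 0.801). Of 6 tested receptors and co-receptors, 1 rose and 3 fell under overexpression, where 30.3% of all genes rose and 44.1% fell. Tgfbr3, a co-receptor that binds BMPs and TGF-beta, averaged 3.93 FPKM in 8276OV, against 5.48 in 5NC, and 4.74 in 8276KD, against 7.01 in 3NC (-0.39 and -0.48, adjusted p = 2.25e-04 and 1.55e-04), with like values after GC correction (-0.39 and -0.49). Rgma, a co-receptor for BMPs, was near 1 FPKM or below, at 0.42 to 0.53 FPKM in 8276OV, against 0.89 to 1.33 in 5NC (-0.52, adjusted p = 1.18e-04; 0.19 and adjusted p = 0.150 after GC correction). Acvr1, another type I receptor, averaged 8.63 FPKM in 8276OV, against 9.55 in 5NC (-0.13, adjusted p = 0.0375; the same after GC correction), but was higher than in 3NC (0.21, adjusted p = 0.00284). Acvr2b, a type II receptor, was not called in either arm as deposited. The remaining SMADs of the chain moved little: Smad4 differed by -0.052 under overexpression (adjusted p = 0.282), Smad5 by 0.20 (adjusted p = 0.00341; -0.0053 after GC correction) and Smad9 by -0.18 (adjusted p = 0.0224).

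Of the E proteins that ID proteins bind, 1 of 3 was called lower under overexpression as deposited, where 44.1% of all genes fell. All 3 were called lower than in 5NC after GC correction, where 27.0% of all genes fell. Tcf3 had 18.17, 24.01 and 20.15 FPKM in 8276OV, against 45.58, 41.61 and 42.79 in 5NC, a fall of 1.03 on the log2 scale (log2 fold change -1.03, SE 0.0931, adjusted p = 7.31e-07). That was -0.31 (adjusted p = 1.19e-05) after GC correction, and -0.071 (adjusted p = 0.127) after GC correction with 3NC as the control. Tcf4 and Tcf12 differed by -0.083 (adjusted p = 0.210) and 0.096 (adjusted p = 0.148), or by -0.41 (adjusted p = 1.29e-05) and -0.12 (adjusted p = 0.0292) after GC correction. Against 3NC as deposited, Tcf4 and Tcf12 were called higher in 8276OV (0.19, adjusted p = 0.0106, and 0.30, adjusted p = 3.83e-04), and Tcf3 lower (-0.70). After GC correction Tcf4 was then lower (-0.13, adjusted p = 0.0353) and Tcf12 not called (0.076, adjusted p = 0.130). The fall of the 3 genes thus depends on the control. All 3 were higher in 5NC than in 3NC (0.33, 0.27 and 0.20), where 30.6% of all genes were higher. None was called under knockdown as deposited, where 39.4% of all genes were called. After GC correction Tcf4 was called lower under knockdown (-0.16, adjusted p = 0.0223), where 23.1% of all genes fell. Tcf12 averaged 35.3 FPKM in 8276OV, against 32.9 in 5NC.

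**Figure D4:**
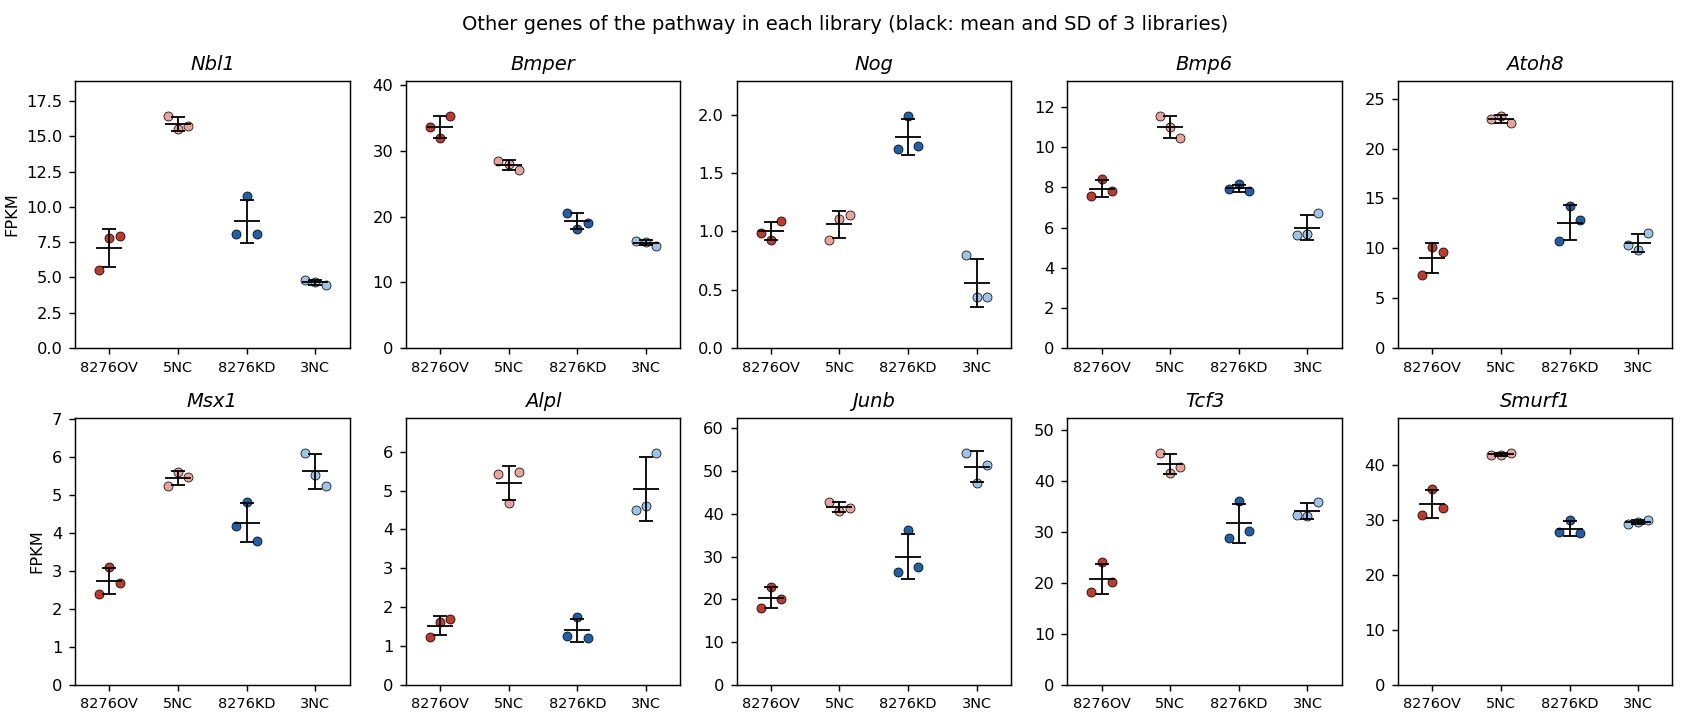
FPKM (vertical axes, from 0) of 10 other genes of the pathway in each library; points are libraries, black bars the mean and SD of 3. Alpl is low in 8276OV and 8276KD, at 1.20 to 1.75, and Atoh8 is high in 5NC, at 22.53 to 23.27.

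Among the 10 genes, Id3 and Smad6 varied most alike over the 12 libraries (Pearson's r = 0.940 of log2 values), and Id1 went with Smad1 (0.898) and Smad6 (0.867). Smad7 and Bmpr1a ran opposite (-0.928). Among the genes most like each Id gene by the same measure were Tnfrsf12a, Senp3 and Cdk5rap3 for Id1 (0.993, 0.991 and 0.989), Rhoa and Psmd7 for Id2 (0.966 and 0.958), Gnas, Yipf3 and Maf1 for Id3 (0.987, 0.986 and 0.985), and Cdk13, Znrf2 and Zcchc24 for Id4 (0.964, 0.947 and 0.941). These points share their groups and the GC trend of each library: the genes like Id1 and Id3 had 54.0% to 57.9% GC, close to those genes themselves. Tnfrsf12a, the receptor of the cytokine TWEAK, averaged 130 FPKM in 8276OV, against 220 in 5NC, and 233 in 8276KD, against 209 in 3NC.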

How the data were processed

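Total RNA of C18-4 cells was sequenced in 12 libraries (4 groups of 3). The authors deposited a table of 17576 genes with a value per library, read as FPKM from the values themselves, since no header names the unit. Per the submitters' processing notes, the genome build was mm10. Which aligner and quantifier were run is not given in the sources used here. Depth is unknown, so a count test could not be used.

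Genes with at least 1 FPKM in at least 3 libraries (11360) were fitted as log2(FPKM + 1) with limma 3.58.1 in R 4.3.3, jointly over the 12 libraries, with eBayes trend and robust. P-values are two-sided and Benjamini-Hochberg adjusted over all genes tested, and a gene was called at an adjusted p below 0.05. Intervals are 95%. An exact permutation test of 3 against 3 cannot go below 0.1. The GC correction removed from each library a natural spline (5 degrees of freedom) of deviations from gene means on transcript GC content, taken from the longest transcript in GENCODE M21 (11197 genes). The spline did not depend on expression level, while the pseudocount shrinks differences of genes near 1 FPKM or below. Corrected values of such genes are therefore less certain. The fitting code was tested on simulated data. Alternatives were other pseudocounts, filters, scalings, GC and length corrections, a replicate block, other controls and leaving out each library.

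The members and gene lists were chosen with earlier results of these data known. Named genes are all 10 members, up to 4 per pathway list with the smallest p in any main comparison, called E proteins, the 3 genes most like each Id gene (1 of those for Id2 is not reported here), and 11 markers of spermatogonia (the 4 with the highest mean and 7 chosen by name). Positions and start regions are RefSeq's on GRCm38.p6.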

Additional observations from a re-analysis of the deposited data

How the results depend on the processing

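Of the 40 fold changes (10 genes in 3 comparisons and in the difference of effects), all 40 kept direction and call with pseudocounts of 0.1 and 0.5; the filter of at least 1 in all 12 libraries gives no value for Id4. GC correction, alone or with the replicate block, left 6 genes called for 8276OV minus 5NC and gave 4 for 8276KD minus 3NC; it turned Smad7 to 0.14 in 8276OV minus 5NC, Smad6 to 0.042 in 8276KD minus 3NC, and the difference of effects to 0.14 for Smad7 and -0.098 for Bmpr2. GC and length correction gave 6 calls for 5NC minus 3NC; it turned Smad7 to 0.17 (then called higher, adjusted p = 0.0455) and Smad1 to 0.0053 in 8276OV minus 5NC, Smad6 to 0.038 and Smad7 to 0.0078 in 8276KD minus 3NC, and the difference of effects to 0.16 for Smad7 and -0.081 for Bmpr2. Quantile normalization turned Bmpr1a in 5NC minus 3NC to -0.026 and, like median-of-ratios factors, ended the Smad1 call in 8276OV minus 5NC (-0.058 and -0.12, adjusted p = 0.368 and 0.0777). Median-of-ratios factors turned the difference of effects for Id2 to 0.017, and equal library sums turned Smad7 in 5NC minus 3NC to 0.032. With the other control, Bmp4 was 0.35 in 8276OV, and Id3 and Bmp4 were -0.43 and -1.01 in 8276KD, which had 5 calls. With both controls together, 8276KD also had 5 calls, and Id3 and Bmp4 were -0.18 and -0.46. The other control with GC correction, chosen after seeing the data, left 6 calls in 8276OV, with Id3 at 0.13, Smad7 at 0.058 and Bmp4 at 0.56; in 8276KD it gave 7 calls (6799 of all genes, against 4477), with Id3 at -0.30, Smad7 at 0.074 and Bmp4 at -0.93. Of all 11197 genes, GC correction called 6135 in 8276OV minus 5NC and 5418 in 8276KD minus 3NC. GC and length correction called 7267 in 5NC minus 3NC, and the other control with GC correction called 7535 in 8276OV. Of all 11360 genes, 6281 were called in 8276KD with the other control and 5138 with both controls together. The causes were not tested.

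Leaving out a library at a time kept 10 calls in 8276OV minus 5NC, gave 1 to 3 in 8276KD minus 3NC and 3 to 4 in 5NC minus 3NC. Of all 11360 genes tested, 7781 to 8652, 3428 to 5008 and 5592 to 6826 were called in these fits. The values that crossed 0 were Smad7 (-0.21 to 0.0078) and Bmp4 (-0.0022 to 0.13) in 8276KD minus 3NC, and Smad7 (-0.030 to 0.034) and Bmpr1a (-0.0015 to 0.079) in 5NC minus 3NC. Replicate numbers were checked as pairs: deviations of same-numbered libraries correlated at -0.183 to -0.0276 between 8276OV and 5NC, -0.181 to -0.00483 between 8276KD and 3NC, and 0.0413 to 0.0883 between 5NC and 3NC, where all 3 correlated best with their own number. Between 8276OV and 8276KD the 3 values were 0.467, 0.590 and 0.0287. In none of these were all 3 over 0.1, so the numbers were not used as pairs. With the replicate block 10, 2 and 3 of the members were called in the 3 comparisons, and 8407, 4434 and 6380 of all genes. Counts were not used here, so the depth behind low genes such as Id4 is unknown.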

Other observations

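Among markers of spermatogonia other than Id4, those with the highest mean FPKM were Tex19.1, Mcam, Adgra3 and Itga6. Mcam, which encodes an adhesion protein, averaged 41.6 FPKM in 8276OV, against 40.5 in 5NC (log2 fold change 0.037, limma adjusted p = 0.430; 0.38 after GC correction), and 66.5 FPKM in 8276KD, against 44.8 in 3NC (0.56, adjusted p = 4.39e-07; 0.60 after GC correction). Etv5, a transcription factor needed for stem cell renewal in the mouse testis, averaged 2.45 FPKM in 8276OV, against 3.10 in 5NC (-0.25, adjusted p = 0.0218; -0.038 after GC correction), and 4.09 FPKM in 8276KD, against 7.81 in 3NC (-0.80, adjusted p = 1.63e-05). Against 5NC it was higher in 8276KD (0.31, adjusted p = 0.00891). It also separated the controls, with 3.10 FPKM in 5NC and 7.81 in 3NC (-1.11, adjusted p = 2.34e-07). Adgra3, an adhesion receptor gene, averaged 8.65 FPKM in 8276OV, against 12.1 in 5NC (-0.44, adjusted p = 3.93e-06, and -0.18 after GC correction). Against 3NC the 8276OV difference was -0.18 (adjusted p = 0.00419), or 0.024 (adjusted p = 0.697) after GC correction. Adgra3 was not called under knockdown (0.090, adjusted p = 0.160). Tex19.1, a germline gene, averaged 60.6 FPKM in 8276OV, against 70.1 in 5NC (-0.21, adjusted p = 0.0153, and 0.057 after GC correction). In 8276KD it averaged 115 FPKM, against 101 in 3NC (0.18, adjusted p = 0.0554), and was called higher after GC correction (0.20, adjusted p = 0.00317). The difference of 5NC minus 3NC was larger (-0.53, adjusted p = 2.46e-05). Itga6, an integrin subunit gene, averaged 4.06 FPKM in 8276OV, against 4.51 in 5NC (-0.12, adjusted p = 0.217), and 3.83 FPKM in 8276KD, against 5.51 in 3NC (-0.43, adjusted p = 0.00174). Against 5NC the 8276KD difference was -0.19 (adjusted p = 0.0775). Over the 8 tested markers, 1 rose and 4 fell under overexpression, and 2 rose and 2 fell under knockdown. Of all tested genes 30.3% rose and 44.1% fell under overexpression, and 20.0% rose and 19.5% fell under knockdown. Of the markers, 22 of the 30 in the table were below 1 FPKM throughout.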
